A study of Drosophila melanogaster with 24 samples.

Results

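Whole males of *Drosophila melanogaster* that had lived at a mean of 25 °C with a daily fluctuation were compared with males that had lived at a mean of 15 °C with a daily fluctuation. Both groups were kept at 20 °C during the assay. The comparison rests on 6 of the 24 arrays of the series, 3 for each group, and covers all 18769 probe sets that are not controls. The 25 °C fluctuating flies went through a daily cycle between 22 and 30 °C and the 15 °C fluctuating flies through one between 12 and 20 °C, from egg until 6 days of adult age, under equal hours of light and dark. They are called 25 °C flies and 15 °C flies from here on. All flies came from 1 laboratory population founded from field-collected Danish flies. Both groups spent the last 18 h before the assay at 20 °C, and vials were frozen at the same moment after the assay, in which these 2 groups stayed in a control bath at 20 °C while parallel vials were warmed to 35 °C. 1 array holds the RNA of 1 pool of 20 males. Each regime was produced by 1 thermal cabinet, so the regime and its cabinet cannot be told apart, and p-values measure the spread between vials of 1 cabinet. The paper raises that its treatments may differ in physiological age, which it did not expect to affect heat tolerance. For expression, physiological age cannot be told apart from mean temperature here either. The question was how far gene expression differs with the mean temperature of life in flies from fluctuating regimes, without the warming to 35 °C. For comparison, the series holds flies from constant 25 and 15 °C assayed at 20 °C, and the same fluctuating groups after warming to 35 °C.

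Flies are ectotherms, so the temperature at which they live sets the rate of their enzymes, their development and their ageing. Insects that live in the cold adjust the composition of membranes and the amount of metabolic enzymes, which is known as thermal acclimation. Indirect flight muscle fills much of the thorax, contracts by stretch activation and is packed with mitochondria, while testis and accessory gland make up much of the male abdomen, and gut and fat body carry out digestion, storage and most detoxification.

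Expression values are on the log2 scale after GC-RMA normalization, so a difference of 1 is a factor of 2, and a fold is between groups for 1 probe set, never between genes. The 6 arrays correlated at 0.988 or more with each other, the lowest value within a group was 0.997, and the highest between the groups was 0.991. The median over probe sets lay between 6.57 and 6.60 on 5 of the arrays and at 6.45 on 15 °C replicate 1. An array of another group, 15 °C fluctuating warmed to 35 °C replicate 3, correlated at no more than 0.216 with any array and was left out of the fit, which then held 23 arrays. Another array outside the comparison, 15 °C constant at 20 °C replicate 1, held egg shell transcripts, with a summed level of egg and yolk markers of 15.10 on the log2 scale against 8.77 to 8.78 in 25 °C flies and 8.41 to 8.61 in 15 °C flies, and it touches the comparison with constant flies. Markers of testis, accessory gland and flight muscle were present in all 6 arrays. Since whole flies were measured, fewer cells of a type and less RNA per cell cannot be told apart in any value below.

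A large part of the transcriptome differed between the 2 groups. At a Benjamini-Hochberg adjusted p under 0.05 in limma, 6628 of 18769 probe sets (35.3%) differed, of which 3309 (17.6%) were higher and 3319 (17.7%) lower in 25 °C flies. Counted with 1 probe set per gene, 2715 of 11982 genes (22.7%) were higher and 2792 (23.3%) lower, which is 46% of genes in all. Values of the 3 arrays per group did not overlap for 59.3% of genes, 30.6% with 25 °C flies above and 28.7% with 25 °C flies below. Most of these differences were small. The median size of a called change was 0.45 on the log2 scale, and 59.2% of called genes changed by less than 0.5. A rise of more than 1 was seen for 205 genes (1.71%) and a fall of more than 1 for 76 (0.634%). Beyond 2 there were 14 rises (0.117%) and 5 falls (0.0417%). The median change over all genes was 0.02, and the median standard error of a change was 0.106. With every array centred on its median, 2669 probe sets were higher and 3752 lower. When the left-out array was put back into the fit, the shared estimate of spread grew and 369 probe sets were called, 221 higher and 148 lower.

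The 15 rises and the 15 falls described next are the largest among called genes whose groups do not overlap, so that the absence of overlap in them is fixed by the choice. The gene that rose most was Mtk, which encodes the antifungal peptide metchnikowin. Its expression was 9.04, 11.51 and 10.73 in 25 °C flies, against 5.12, 6.26 and 7.62 in 15 °C flies, a rise of 4.09 ± 0.68 (SE) or 17.1-fold (adjusted p = 0.000101). Values within each group spread over more than 2 units, with 25 °C replicate 2 highest as in PGRP-SB1 and DptB below. MtnB, a metallothionein that binds copper and other metals, was at 9.46, 7.83 and 8.83 in 25 °C flies, against 5.80, 6.34 and 6.37 in 15 °C flies, a rise of 2.54 ± 0.33 (adjusted p = 9.12e-06). Npc2e, a member of the sterol-binding Niemann-Pick type C2 family, stood at 8.33, 7.73 and 7.47 in 25 °C flies, against 4.90, 5.60 and 5.46 in 15 °C flies, with a rise of 2.52 ± 0.32 (adjusted p = 6.09e-06). In MtnB the 25 °C arrays were spread more widely than the 15 °C arrays, with replicate 2 lowest. PGRP-SB1, a peptidoglycan recognition protein, was at 9.79, 11.09 and 10.33 in 25 °C flies, against 8.21, 7.92 and 8.48 in 15 °C flies (rise 2.20 ± 0.38, adjusted p = 0.000153). Ance-5, related to angiotensin-converting enzyme, had the smallest error of the leading rises, with 9.55, 9.15 and 9.19 in 25 °C flies, against 7.26, 7.28 and 7.10 in 15 °C flies and a change of 2.09 ± 0.12 (adjusted p = 1.23e-09). MtnD, another metallothionein, rose by 2.08 ± 0.40 (adjusted p = 0.000376). Genes of the lysosomal alpha-mannosidases, enzymes that trim mannose from glycoproteins, appeared more than once, with LManV at 10.12, 9.65 and 9.86 in 25 °C flies, against 7.49, 8.02 and 7.86 in 15 °C flies and LManVI higher by 2.07 ± 0.18. Other members of that family are LManIII (1.81), LManI (1.30), LManII (0.87) and LManIV (0.12, adjusted p = 0.431), of which I, II and IV were named after their values had been seen. The remaining genes among these 15 rises are known by number, CG15263 (2.71), CG9294 (2.21), CG14406 (2.17), CG15369 (2.12), CG15533 (2.07), CG13947 (1.95, a probe set that can match several genes) and CG34290 (1.95). DptB, described with the antimicrobial peptides, rose by 2.06, more than CG13947 and CG34290, and is not among the 15 because its groups overlap.

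The falls were led by genes of the indirect flight muscle. TpnC4 encodes the troponin C isoform of stretch activation, and its expression was 8.44, 8.63 and 8.10 in 25 °C flies, against 11.66, 11.74 and 11.67 in 15 °C flies, a fall of -3.30 ± 0.25 on the log2 scale, or 9.85-fold lower (adjusted p = 1.09e-08). Flightin, a thick filament protein of the same muscle encoded by fln, was at 7.70, 7.75 and 7.29 in 25 °C flies, against 10.64, 11.06 and 10.82 in 15 °C flies (-3.26 ± 0.30, 9.6-fold lower, adjusted p = 1.57e-07). The 3 arrays of each group lay close together in both genes, with gaps between the groups wider than the spread within them. Fhos, a formin that takes part in building flight muscle sarcomeres, was at 8.97, 9.12 and 9.11 in 25 °C flies, against 10.58, 10.92 and 10.67 in 15 °C flies (-1.66 ± 0.13, adjusted p = 2.57e-08). Its 2 other probe sets, which have lower levels, changed by -1.12 and -0.09. Retinin, a protein of the corneal lens, was lower at 8.11, 8.19 and 7.53 in 25 °C flies, against 9.51, 9.90 and 9.75 in 15 °C flies (-1.78 ± 0.18, adjusted p = 3.75e-07). Male reproductive genes were also among the 15 falls. The accessory gland protein gene Acp53C14c was at 7.39, 8.17 and 7.34 in 25 °C flies, against 9.25, 9.67 and 9.46 in 15 °C flies (-1.83 ± 0.18), the serpin gene Spn28F was lower by -1.69 ± 0.12 and the male-specific gene msopa by -1.55 ± 0.18, all with changes given as 25 °C minus 15 °C and therefore negative. Gr8a, a gustatory receptor gene for the plant amino acid canavanine, was near the low end of the scale at 3.54, 3.46 and 3.38 in 25 °C flies, against 4.78, 5.34 and 5.03 in 15 °C flies (-1.59 ± 0.16). The others were CG7214 (-2.74), CG15617 (-2.19), CG13026 (-2.09), CG7227 (-1.82), the non-coding RNA lncRNA:CR40053 (-1.78), CG7304 (-1.77) and CG6154 (-1.68). All 30 of these rises and falls passed the threshold under every alternative but the fit on 24 arrays, in which 23 did.

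**Figure D1:**
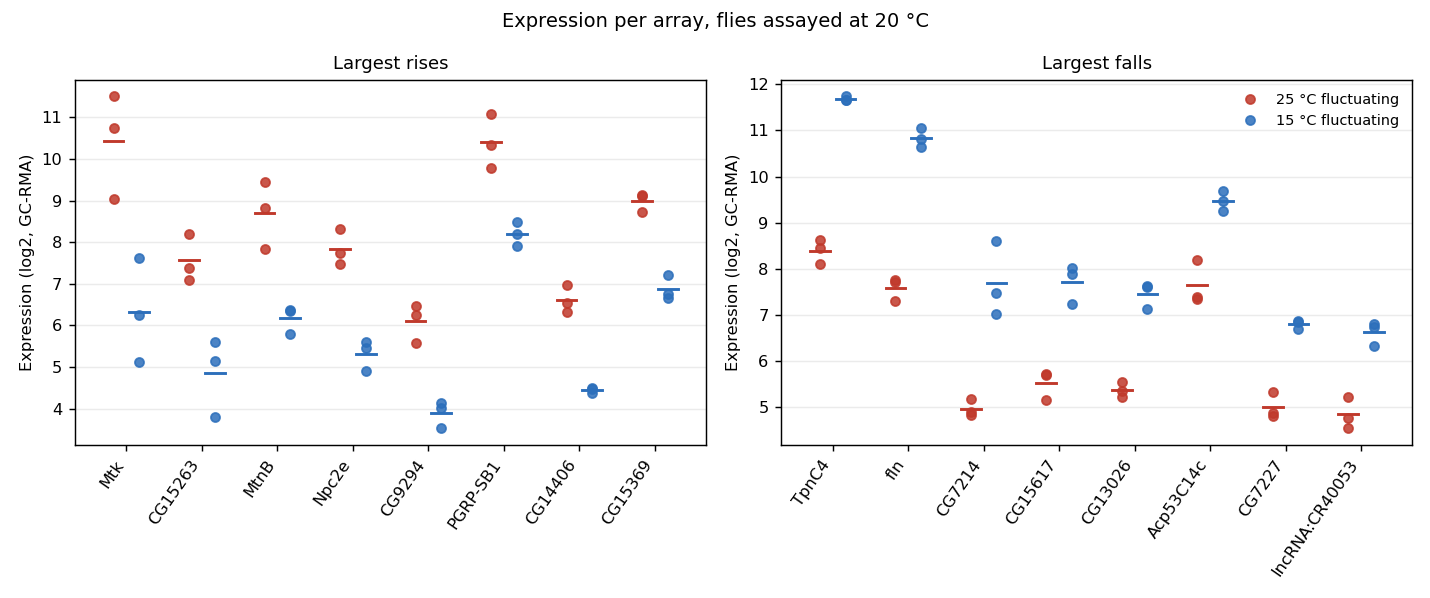
Expression (log2, GC-RMA) on each array for the 8 largest rises and the 8 largest falls of this choice, with 25 °C fluctuating flies in red left of 15 °C fluctuating flies in blue and a bar at each mean of 3 arrays. Genes were chosen among those whose groups do not overlap, and Mtk has the widest spread within groups.

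The genes were grouped into lists by function and tissue. The counts of members are to be read against the shares of all genes, of which 22.7% were higher and 23.3% lower. Lists of digestion, fat use, protein handling in the endoplasmic reticulum, the circadian clock, detoxification and cytosolic ribosomes had most of their called members higher in 25 °C flies. Lists of flight muscle, mitochondrial respiration, sperm, meiosis and mitosis had most of their called members lower. The lists were chosen with earlier results of these data known, so their directions are descriptions.

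**Figure D2:**
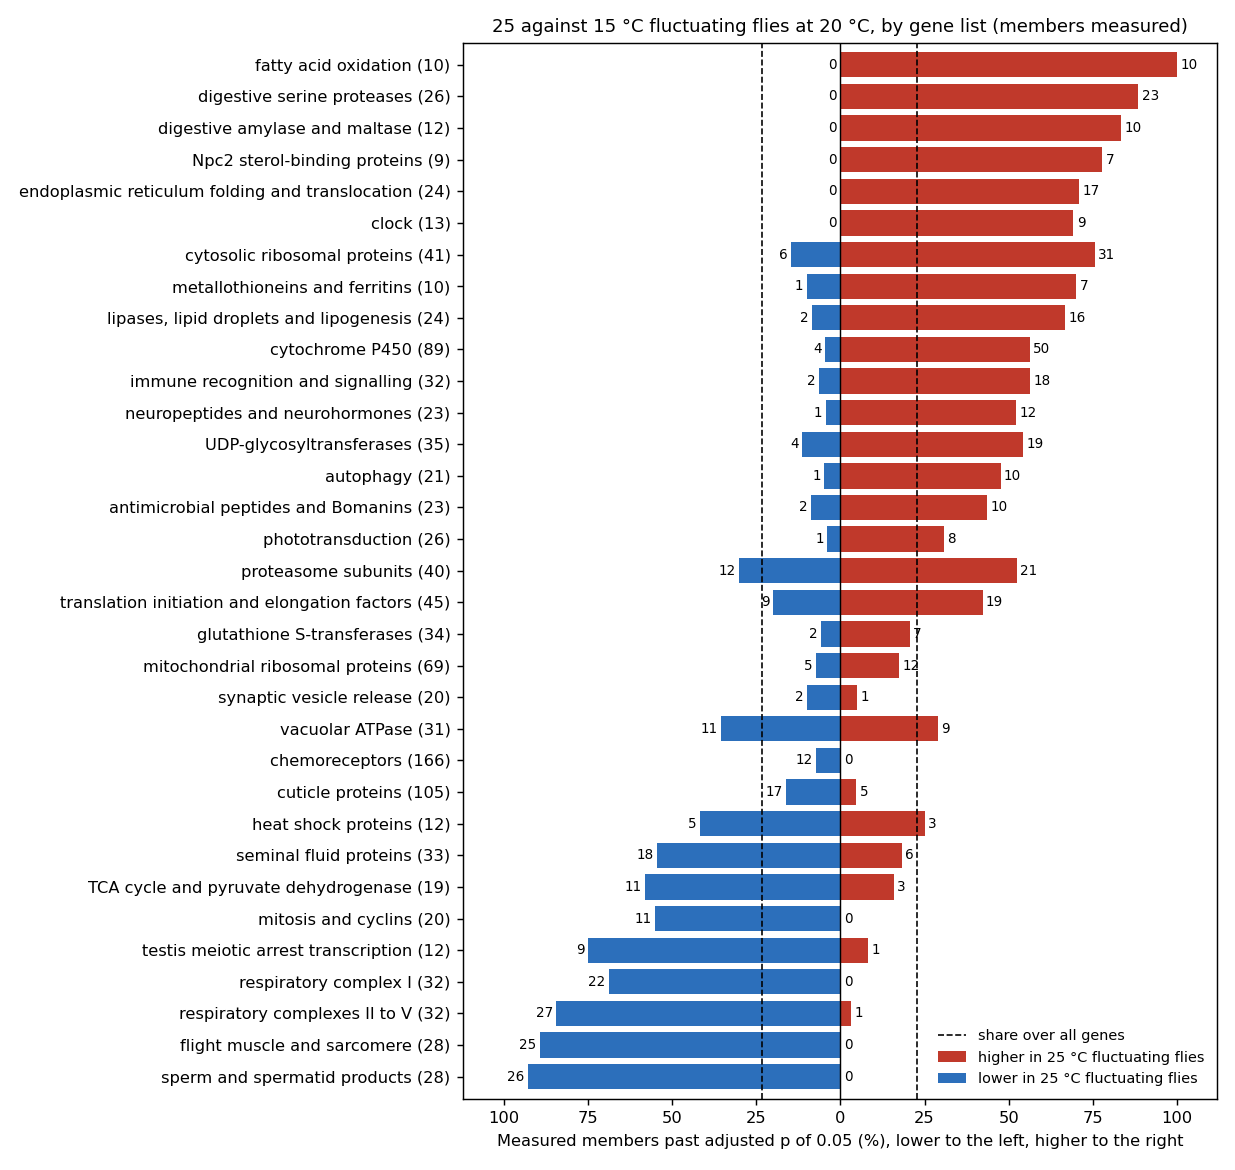
Share of measured members (%) with adjusted p under 0.05 that were higher (red, to the right) or lower (blue, to the left) in 25 °C fluctuating flies, for selected gene lists, with the number of members called at each bar and the number measured in brackets. Dashed lines mark the shares over all genes, 22.7% higher and 23.3% lower. Sperm products and flight muscle reach farthest to the left and fatty acid oxidation farthest to the right.

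Genes of flight muscle and the sarcomere fell together. Of 28 measured genes, 25 were lower in 25 °C flies and 0 higher, with a median change of -0.51 against 0.02 over all genes. Beyond TpnC4 and fln, the flight muscle actin gene Act88F had 9.44, 9.22 and 9.46 in 25 °C flies, against 10.55, 10.95 and 11.20 in 15 °C flies, a change of -1.53 ± 0.17 (adjusted p = 1.49e-06). Those 3 genes, the flight muscle markers measured here, had a summed level of 10.15 to 10.28 in 25 °C flies and 12.63 to 12.88 in 15 °C flies. The next in size were TpnC41C (-1.04), Obsc (-0.97), Act79B (-0.96), Mlc2 (-0.94), Mlc1 (-0.71), sls (-0.66) and Actn (-0.61), which encode another troponin C, the giant protein obscurin, an actin, both myosin light chains, the elastic protein sallimus and alpha-actinin. Intermediate falls were measured for Mlp60A (-0.59), Prm (-0.57), Strn-Mlck (-0.55), Tm2 (-0.54), Zasp52 (-0.49), Mlp84B (-0.49), up (-0.46), tmod (-0.45), SERCA (-0.44) and bt (-0.41). These include the thick filament protein paramyosin (Prm), tropomyosin 2 (Tm2), troponin T (up) and the calcium pump of the sarcoplasmic reticulum (SERCA). Smaller falls were seen for sals (-0.30), Argk1 (-0.28), Act87E (-0.27), Zasp66 (-0.23) and Mf (-0.21). The other members did not pass the test, TpnC73F (-0.24, adjusted p = 0.0658), Zasp67 (-0.13) and Msp300 (0.01). The call of Mf was lost without 25 °C replicate 2 (adjusted p = 0.0541) and in a fit of the 6 arrays alone (0.0522).

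Probe sets of the same gene did not always change alike. The probe set of Strn-Mlck with the highest level changed by -0.55, while a second had 6.08, 6.24 and 5.91 in 25 °C flies, against 8.81, 9.11 and 9.13 in 15 °C flies, a change of -2.94 ± 0.26 (adjusted p = 1.02e-07). For Mf, which encodes myofilin of the thick filament, the first probe set changed by -0.21 and a second, at 12.51, 12.47 and 12.55 in 25 °C flies, against 13.60, 13.80 and 13.69 in 15 °C flies, by -1.19 ± 0.08 (adjusted p = 5.17e-09). The arrays of the groups did not overlap in either second probe set. Smaller discrepancies were seen in sls (its others at -0.68 and -0.04) and in Mlp60A (its others at -1.22 and -1.22). Msp300 did not pass with its strongest probe set, but another fell (-0.39, adjusted p = 0.00178) and its 4 others changed by -0.03 to 0.26 and did not pass. Such probe sets can match more than 1 transcript, and whether they measure different transcripts of the gene was not tested.

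**Figure D3:**
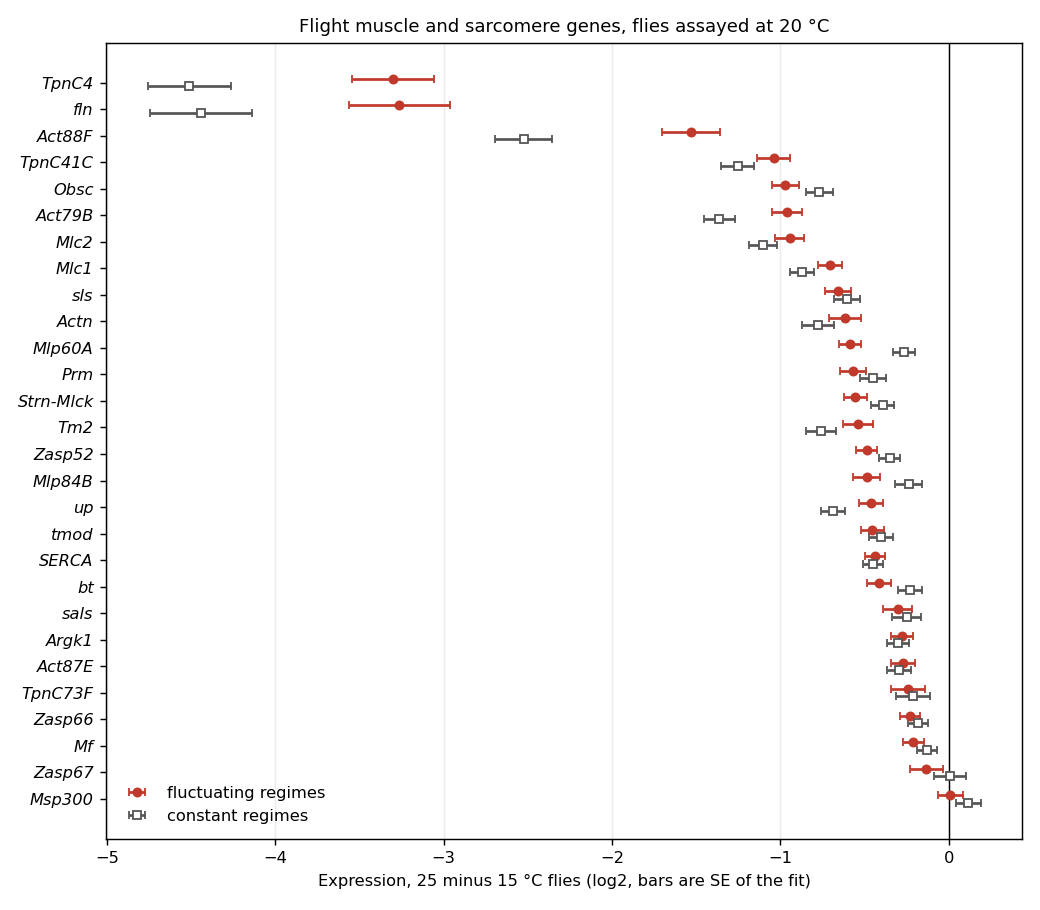
Change in expression (25 minus 15 °C flies, log2) of the 28 measured flight muscle and sarcomere genes, with bars for the standard error of the fit, for fluctuating regimes (red, filled) above constant regimes (grey, open), all assayed at 20 °C. TpnC4, fln and Act88F lie farthest to the left in both, and 14 of the genes have the larger change in constant flies.

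Nuclear genes of the mitochondrial respiratory chain, which passes electrons from NADH and succinate to oxygen and makes ATP, were lower in 25 °C flies. In complex I, 22 of 32 measured subunit genes were lower and 0 higher (median -0.29), and in complexes II to V 27 of 32 were lower and 1 higher (median -0.32). The largest fall in complex I was that of ND-B8, at 9.12, 9.23 and 9.29 in 25 °C flies, against 10.50, 10.53 and 10.55 in 15 °C flies (-1.32 ± 0.12, adjusted p = 1.54e-07). Its arrays lay close together within each group. It was followed by ND-B14.5AL (-0.80) and ND-20L (-0.73). In complexes II to V the leading falls were all in succinate dehydrogenase, the complex II enzyme, SdhD (-0.61), SdhC (-0.57) and SdhB (-0.50), and the exception that rose was COX7A (0.34), a cytochrome c oxidase subunit. The tricarboxylic acid cycle list was split, with 11 of 19 lower, such as mAcon2 (-0.64) and Fum4 (-0.60), and 3 higher, Idh (0.65), Scsalpha1 (0.58) and Mdh1 (0.54). Idh and Mdh1 are also known as enzymes of the cytosol, where they supply NADPH and shuttle reducing power. The part of testis RNA in the falls of these lists, among them ND-B14.5AL, ND-20L, mAcon2 and Fum4, was not tested.

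In the list of glycolysis, glycogen and the glycerol phosphate shuttle, 5 of 16 genes were higher and 4 lower (median -0.04), shares close to those over all genes. The higher ones were led by UGP, whose product makes UDP-glucose, the building block of glycogen and trehalose, at 8.01, 8.06 and 8.08 in 25 °C flies, against 6.36, 6.35 and 6.24 in 15 °C flies (1.73 ± 0.14, adjusted p = 4.81e-08). Hex-C (0.99), a hexokinase, and Pgm1 (0.89), phosphoglucomutase, followed. Those that fell included Gapdh1 (-0.36) and Ald1 (-0.36), enzymes of the main line of glycolysis. The call of Ald1 was lost without 25 °C replicate 1 (0.124), 25 °C replicate 2 (0.0651) or 15 °C replicate 1, without which the change was -0.16 (adjusted p = 0.261), and a second probe set of the gene changed by 0.03. The number lower in this list was 2 without 15 °C replicate 2, without 25 °C replicate 2 and in the fits of the 12 arrays at 20 °C and of the 6 arrays alone. The list of trehalose and sugar transport was likewise near all genes, with 3 of 10 higher and 2 lower. Of its genes, sut1 (0.67) and Tps1 (0.57) rose, the second encoding trehalose-6-phosphate synthase, and sut4 (-0.68) and sut3 (-0.49) fell.

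Digestive enzymes were higher in 25 °C flies. In the list of amylases and maltases, which split starch and sugars in the gut, 10 of 12 genes were higher and 0 lower, with a median change of 0.97. Mal-A4 had 9.78, 9.90 and 9.70 in 25 °C flies, against 8.21, 8.39 and 8.49 in 15 °C flies (1.43 ± 0.16, adjusted p = 1.99e-06), and no 15 °C array reached the 25 °C arrays. The other maltases that rose were Mal-A7 (1.19), Mal-A8 (1.08), Mal-A3 (1.07), Mal-A6 (1.01), Mal-A2 (1.0), Mal-A1 (0.90) and Mal-B2 (0.62), and with them tobi (0.94), an alpha-glucosidase gene that answers to brain-derived hormones, and Amyrel (0.86), an amylase relative. Mal-B1 changed by 0.51 (adjusted p = 0.0571) and Mal-A5 by 0.10, neither past the threshold. Of 26 digestive serine proteases, 23 were higher and 0 lower (median 0.78), led by Jon44E at 10.19, 9.97 and 9.92 in 25 °C flies, against 8.28, 8.77 and 8.51 in 15 °C flies (1.50 ± 0.26, adjusted p = 0.000166) and followed by Jon99Ci (1.25) and iotaTry (1.22). The summed level of the gut markers measured here, Mal-A1 and Jon65Aiii, was 13.60 to 13.87 in 25 °C flies and 12.81 to 12.85 in 15 °C flies, and its part in these lists was not tested.

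Fat breakdown genes rose as a group. All 10 measured genes of fatty acid oxidation were higher, with a median of 0.70 and yip2 (0.97), a thiolase, Acox57D-p (0.79), a peroxisomal acyl-CoA oxidase, and CPT2 (0.78), which moves acyl groups into mitochondria, in front. Values of yip2 were 11.47, 11.35 and 11.31 in 25 °C flies, against 10.33, 10.46 and 10.43 in 15 °C flies. Among 24 genes of lipases, lipid droplets and fat synthesis, 16 were higher and 2 lower (median 0.51), including the lipase genes Lip3 (1.20) and Lip4 (1.14) and the triglyceride synthesis gene Dgat2 (0.88), while Agpat1 (-0.49) and Lip2 (-0.49) fell. In the Npc2 family, whose members carry sterols or lipid-like molecules, 7 of 9 were higher and 0 lower. Besides Npc2e these were led by Npc2d (1.06) and Npc2g (1.01). The lipid transfer particle gene Apoltp, whose product loads lipids onto the blood lipoprotein of flies, rose by 1.20 ± 0.12 (adjusted p = 3.75e-07).

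Detoxification genes were more often higher than lower. Of 89 measured cytochrome P450 genes, whose enzymes oxidise toxins, hormones and fatty acids, 50 were higher and 4 lower, with a median of 0.33. Cyp6w1 was at 12.79, 12.86 and 12.95 in 25 °C flies, against 11.36, 10.74 and 11.38 in 15 °C flies (1.70 ± 0.16, adjusted p = 1.34e-07), Cyp6a8 rose by 1.35 and Cyp309a1 by 1.21. The falls were led by Cyp305a1 (-0.59) and shd (-0.49), the second being the enzyme that makes active 20-hydroxyecdysone. Among UDP-glycosyltransferases, which attach sugars to small molecules, 19 of 35 were higher and 4 lower (median 0.36), led by Ugt302E1 (1.09), Ugt37A2 (0.99) and Ugt49B1 (0.92). The 4 that fell numbered 2 without 15 °C replicate 1 and 2 without 25 °C replicate 1. Glutathione S-transferases stood closer to all genes, with 7 of 34 higher, 2 lower and a median of 0.10. Of these, GstE9 rose most (0.92), and the count of higher members was 4 without 15 °C replicate 1 and 4 without 25 °C replicate 3.

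Antimicrobial peptides are short secreted peptides made after the Toll and IMD pathways sense microbes, and Bomanins are Toll-controlled peptides of the blood. Of 23 measured, 10 were higher in 25 °C flies and 2 lower, with a median of 0.29, so that the 4.09 of Mtk was the largest, ahead of 2.06 for DptB. Diptericin B, encoded by DptB, had 7.79, 10.67 and 9.84 in 25 °C flies, against 6.96, 6.80 and 8.34 in 15 °C flies, and 1 array of 25 °C flies lay within the range of 15 °C flies. Its change of 2.06 ± 0.65 passed the test (adjusted p = 0.0173) but not without 25 °C replicate 2 (0.115), 25 °C replicate 3 (0.0676), 15 °C replicate 1 (0.0655) or 15 °C replicate 2 (0.0746). Defensin, encoded by Def, was at 6.56, 7.26 and 7.17 in 25 °C flies, against 5.67, 5.49 and 5.32 in 15 °C flies (change 1.50 ± 0.58, adjusted p = 0.0496), did not overlap between groups, and lost its call without any 1 of the 6 arrays, with adjusted p between 0.056 without 25 °C replicate 1 and 0.126 without 25 °C replicate 2. Listericin (1.10), BomT2 (0.72), BomT3 (0.43) and IM33 (0.34) rose with or without each array. The rises of CecB (0.69), BomBc2 (0.39) and BomS6 (0.29) were lost without 25 °C replicate 2, with adjusted p of 0.137, 0.0948 and 0.0704, and without that array the list held 5 higher members. BomBc2 was also lost without 15 °C replicate 1 (0.0795), and BomS6 without 15 °C replicate 2 (0.0589) and with centred arrays (0.0621). Lower were Drsl3 (-0.33) and Drsl4 (-0.32), relatives of drosomycin, both lost without 15 °C replicate 3 (0.122 and 0.127) and without 25 °C replicate 3 (0.107 and 0.116), the second also without 25 °C replicate 1 (0.0704). Drosomycin itself, encoded by Drs, was at 11.80, 11.93 and 11.47 in 25 °C flies, against 11.67, 12.02 and 11.05 in 15 °C flies, with overlapping groups and a change of 0.15 ± 0.21 (adjusted p = 0.647). The remaining 10 members lay between -0.24 (Drsl5) and 0.71 (edin) and did not pass.

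Upstream of these peptides, 18 of 32 genes of immune recognition and signalling were higher and 2 lower (median 0.38). After PGRP-SB1, the largest rises were in PGRP-SC2 (1.46), an amidase that cuts peptidoglycan, and pirk (1.27), both known as brakes on the IMD pathway. The prophenoloxidase gene PPO3, active in melanisation, fell, with 4.25, 4.19 and 4.40 in 25 °C flies, against 5.43, 5.93 and 5.75 in 15 °C flies (-1.43 ± 0.16, adjusted p = 1.39e-06).

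Metallothioneins and proteins of iron storage and transport were mostly higher, 7 of 10 against 1 lower. MtnD had 10.56, 8.16 and 9.86 in 25 °C flies, against 7.60, 7.52 and 7.21 in 15 °C flies, and MtnC had 11.07, 10.13 and 11.03 in 25 °C flies, against 9.29, 9.07 and 9.02 in 15 °C flies (1.62 ± 0.22, adjusted p = 1.36e-05). In MtnB, MtnC and MtnD alike, 25 °C replicate 2 was the lowest 25 °C array and still above every 15 °C array. MtnA differed from its relatives, with 13.70, 13.64 and 13.56 in 25 °C flies, against 13.56, 13.79 and 13.75 in 15 °C flies and a change of -0.07 ± 0.08 (adjusted p = 0.592). The secreted iron carrier Tsf1 rose by 0.77 ± 0.09 (adjusted p = 3.1e-06) and the ferritin light chain gene Fer2LCH by 0.35 ± 0.07. Smaller changes were those of Fer1HCH (0.18), the ferritin heavy chain, Tsf2 (0.30) and Fer3HCH (-0.29), the mitochondrial ferritin. Fer1HCH lost its call with arrays centred on their medians (0.109), after quantile normalization (0.12) and in a fit of the 6 arrays alone (0.0688). Tsf2 lost it without 15 °C replicate 1 (0.0887), 25 °C replicate 1 (0.0604) or 25 °C replicate 3 (0.0585). Fer3HCH lost it without 15 °C replicate 2 (0.0843), 15 °C replicate 3 (0.192), 25 °C replicate 1 (0.0972) or 25 °C replicate 3 (0.177). It was also lost on the 12 arrays assayed at 20 °C (0.0604). Tsf3 changed by 0.19 (adjusted p = 0.148).

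**Figure D4:**
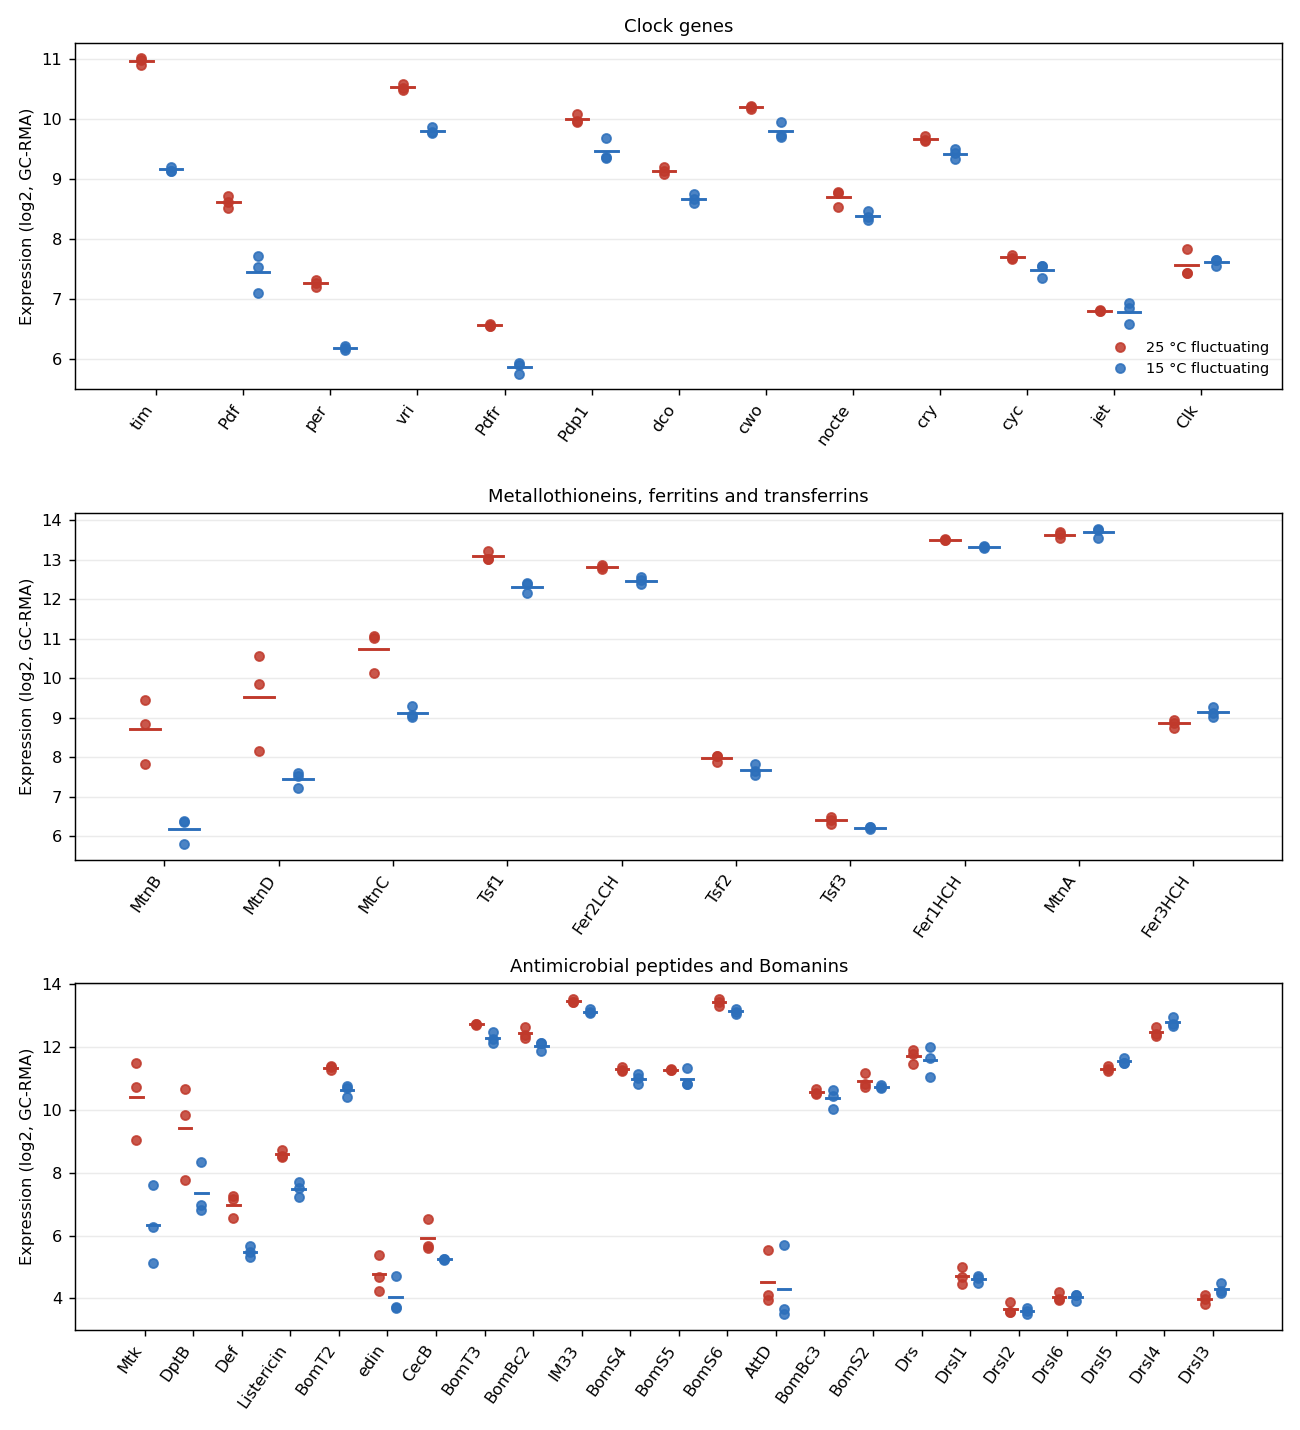
Expression (log2, GC-RMA) on each array of the measured clock genes (top), metallothioneins, ferritins and transferrins (middle) and antimicrobial peptides and Bomanins (bottom), with 25 °C fluctuating flies in red left of 15 °C fluctuating flies in blue and a bar at each mean of 3 arrays. The clock genes have groups set apart for tim, Pdf and per, narrow in tim and per, while Mtk, DptB and MtnD spread widely within groups.

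Among the lists of protein synthesis, cytosolic ribosomal proteins had the largest share of members higher in 25 °C flies. Of 41 cytosolic ribosomal proteins with a probe set of their own, out of 93 listed, 31 were higher and 6 lower (median 0.32). The rises were modest, RpL34a being the largest at 0.68, and RpL34a had 11.19, 11.02 and 11.12 in 25 °C flies, against 10.38, 10.50 and 10.41 in 15 °C flies. The lower members were led by RpS28a (-1.0) and RpL10Aa (-0.61), each a second gene for a ribosomal protein. Translation factors had 19 of 45 higher and 9 lower, led by eIF3f1 (0.91), and aminoacyl-tRNA synthetases 15 of 29 higher and 4 lower, led by GlnRS (0.55). Ribosome biogenesis had a median of 0.29 but only 2 of 20 called higher, one of them Non1 (0.78). When the array with egg shell transcripts was left out of the fit, 12 of these genes were called higher, and 11 were in a fit of the 6 arrays alone. Mitochondrial ribosomal proteins had 12 of 69 higher and 5 lower (median 0.07). Their number higher was 2 without 15 °C replicate 1, 4 without 25 °C replicate 1, 5 without 25 °C replicate 3 and 7 with centred arrays, and their number lower was 2 without 15 °C replicate 2, 3 without 15 °C replicate 3 and 3 without 25 °C replicate 2.

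The proteasome, which degrades tagged proteins, had 21 of 40 subunit genes higher and 12 lower. Those that rose most were the general subunits Rpt3 (0.78), Prosbeta2 (0.73) and Prosalpha4 (0.72). Those that fell most were testis-expressed copies of general subunits, Prosalpha4T1 (-0.83), Prosbeta2R2 (-0.75) and Prosbeta5R2 (-0.69). Prosalpha4 was at 10.26, 10.16 and 10.16 in 25 °C flies, against 9.39, 9.56 and 9.47 in 15 °C flies, and Prosalpha4T1 at 8.56, 8.56 and 8.42 in 25 °C flies, against 9.39, 9.26 and 9.39 in 15 °C flies. The list of folding and translocation in the endoplasmic reticulum had 17 of 24 higher and 0 lower (median 0.34), among them Hsc70-3 (0.71), OstDelta (0.63) and Sec61alpha (0.59), for the chaperone BiP, a subunit of oligosaccharyl transferase and the translocation channel. Heat shock protein genes did not move as a group, with 3 of 12 higher, 5 lower and a median of -0.10. The constitutive chaperone gene Hsc70-4 rose (0.45) and the small heat shock protein gene Hsp27 fell (-0.42), while the probe set used for Hsc70-1 fell (-0.75) and its 2 others changed by -0.11 and -0.03. The Hsp70 genes were among the 11 listed members that were not measured. No gene of the cytosolic chaperonin CCT was called out of 8 (median 0.26), with 3 at an unadjusted p under 0.05, but 7 were called higher when the array with egg shell transcripts was left out of the fit and 5 in a fit of the 6 arrays alone.

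Genes of the male germline were lower in 25 °C flies. Of 28 measured genes for sperm and spermatid products, 26 were lower and 0 higher, with a median of -0.40. Those that fell most included fzo (-0.94), needed for fusion of mitochondria in spermatids, at 7.23, 7.75 and 7.45 in 25 °C flies, against 8.33, 8.48 and 8.45 in 15 °C flies (adjusted p = 4.84e-05), and ProtA (-0.59), a protamine that packs sperm DNA. The meiotic arrest genes, which switch on the transcription programme of spermatocytes, had 9 of 12 lower and 1 higher (median -0.45), with topi (-1.07) and vis (-0.81) among the falls and mia (0.56) as the rise. Mitosis and cyclin genes had 11 of 20 lower and 0 higher (median -0.45), led by borr (-0.99), fzy (-0.83) and Incenp (-0.79). The value of fzy is that of its strongest probe set, and the median over its probe sets was 0.0388. The replication list was near the background with 7 of 27 lower and 3 higher, but Mcm10 (-1.21) and Orc5 (-0.92) fell. The number higher was 7 when the array with egg shell transcripts was left out of the fit and 6 in a fit of the 6 arrays alone.

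The 4 testis markers were all lower, dj at -0.50, Mst87F at -0.40, betaTub85D at -0.23 and aly at -0.35, and their summed level was 14.19 to 14.33 in 25 °C flies and 14.61 to 14.63 in 15 °C flies, without overlap. The calls of dj (adjusted p = 0.109), betaTub85D (0.077) and aly (0.0794) were lost without 15 °C replicate 1, that of betaTub85D without any 1 of the 6 arrays except 25 °C replicate 2 (up to 0.138, without 25 °C replicate 1) and that of dj also without 25 °C replicate 1 (0.13). Testis-expressed copies of general genes fell beside them, as in the proteasome. Among them were the vacuolar ATPase subunits Vha14-2 (-0.93) and Vha36-2 (-0.65). Atg8b, the germline copy of an autophagy gene, changed by -0.54 (adjusted p = 0.000235). The part of testis RNA in these lists, and in the falls among ribosomal protein genes, was not tested.

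Seminal fluid genes, expressed in the accessory gland, were mostly lower, 18 of 33 against 6 higher (median -0.27). Acp26Aa, which encodes ovulin, was at 11.24, 11.52 and 11.26 in 25 °C flies, against 12.53, 12.52 and 12.40 in 15 °C flies (-1.14 ± 0.11, adjusted p = 2.27e-07). Acp76A (-1.08) followed, while lectin-46Ca (0.69) and lectin-46Cb (0.64) rose. Acp65Aa (0.73), counted among the 33 measured and the 6 higher, encodes an adult cuticle protein and is no seminal fluid gene. The 3 accessory gland markers measured were lower, with SP, the sex peptide gene, at -0.33, Acp36DE at -0.69 and a summed level of 14.05 to 14.26 in 25 °C flies and 14.70 to 14.75 in 15 °C flies.

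The circadian clock genes were higher in 25 °C flies. Of 13 measured, 9 rose and 0 fell, with a median change of 0.47. In the fly clock, Clk and cyc activate per and tim, whose proteins return to the nucleus and repress that activation, and vri and Pdp1 form a second loop. The repressor gene tim was at 10.99, 10.90 and 11.01 in 25 °C flies, against 9.13, 9.14 and 9.20 in 15 °C flies, a rise of 1.81 ± 0.09 or 3.5-fold with the smallest adjusted p of the list (1.1e-10). The other repressor, per, was at 7.20, 7.32 and 7.27 in 25 °C flies, against 6.15, 6.22 and 6.19 in 15 °C flies (1.08 ± 0.08, adjusted p = 2.49e-08). Arrays of a group lay close together in both genes. Pdf, the neuropeptide of the clock neurons, was at 8.71, 8.52 and 8.61 in 25 °C flies, against 7.09, 7.72 and 7.53 in 15 °C flies (1.17 ± 0.12), and the gene of its receptor, Pdfr, rose by 0.69 ± 0.08. In the second loop, vri rose by 0.72 ± 0.10 and Pdp1 by 0.54 ± 0.10. The kinase gene dco (0.47) and the repressor gene cwo (0.40) rose too. The activators did not pass the test, with Clk at 7.42, 7.83 and 7.43 in 25 °C flies, against 7.64, 7.56 and 7.65 in 15 °C flies (-0.05 ± 0.13, adjusted p = 0.81) and cyc at a change of 0.21 (0.0599), nor did the light receptor gene cry (0.25, 0.0586) or jet (0.02). The rise of nocte (0.31), a gene of temperature entrainment, was lost without 15 °C replicate 2 (0.0782), 15 °C replicate 3 (0.107), 25 °C replicate 1 (0.109) or 25 °C replicate 3 (0.124). That rise was also lost with centred arrays (0.0786) and after quantile normalization (0.0528). All vials were frozen at 1 time of day, so these values are 1 point of the daily cycle.

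Genes of the eye and the nervous system had smaller median changes than the clock genes. Phototransduction had 8 of 26 higher and 1 lower (median 0.13), and 5 were higher without 15 °C replicate 1. Those that rose most were laza (0.83), a lipid phosphatase of photoreceptors, santa-maria (0.78), needed to make the visual pigment, and inaD (0.68), the scaffold of the signalling complex. The 2 eye markers measured were the light-gated channel gene trp (0.61) and the arrestin gene Arr2 (0.45), and their summed level was 13.28 to 13.46 in 25 °C flies and 12.68 to 13.04 in 15 °C flies. The call of trp was lost without 15 °C replicate 1 (adjusted p = 0.0705). Synaptic vesicle genes did not move as a list, with 1 of 20 higher, 2 lower and a median of 0.03. The single rise, unc-13 (0.34), was lost without 25 °C replicate 3 (0.0702), and the falls were Amph (-0.42) and brp (-1.04). In flies the Amph protein is best known from muscle membranes, and the part of muscle RNA in its fall was not tested. The brp value comes from 1 probe set, and the 3 others changed by -0.12, -0.04 and 0.01. Ion channel genes had 1 of 23 higher, Ih (0.22), and 1 lower, Shaw (-0.37). The call of Ih was lost without 15 °C replicate 1 (0.143), 25 °C replicate 1 (0.0865) or 25 °C replicate 3 (0.148), and that of Shaw without 15 °C replicate 2 (0.0887), 15 °C replicate 3 (0.0759), 25 °C replicate 1 (0.086) or 25 °C replicate 3 (0.117). Neuropeptides were more often higher, 12 of 23 against 1 lower (median 0.30), with the stress peptide corazonin (Crz, 0.78) and the insulin-like peptide Ilp2 (0.75) behind Pdf. Eh, the eclosion hormone gene, fell, at 4.48, 3.82 and 4.05 in 25 °C flies, against 5.37, 5.44 and 5.54 in 15 °C flies (-1.33 ± 0.16, adjusted p = 3.37e-06).

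The same contrast of mean temperatures was measured in flies from constant regimes, on other arrays. In 25 °C constant against 15 °C constant flies, 8063 probe sets (43%) differed, and so did 54.2% of genes, 26.2% higher and 28% lower. Of the 6628 probe sets called in fluctuating flies, 5269 were also called in constant flies, which is 79.5% of the fluctuating list and 65.3% of the constant list. The direction was the same for 5249 of them and opposite for 20. The change was the larger one in constant flies for 3280 of those 5249. The median size of a change was 0.173 in fluctuating and 0.214 in constant flies. Across probe sets, which are not independent replicates, the changes correlated with r = 0.819, and with 0.859 when the constant array with egg shell transcripts was left out. Of the largest changes with groups that do not overlap, all 15 falls and 14 of the 15 rises were called in constant flies, the exception being MtnD (0.92, adjusted p = 0.069).

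The counts of some lists in both regimes were set side by side. Flight muscle genes had 25 lower in fluctuating and 24 lower in constant flies, with TpnC4 at -3.30 and -4.51. Complex I had 22 and 31 lower with medians of -0.29 and -0.50. Digestive serine proteases had 23 and 14 higher, for example Jon44E at 1.50 and 0.41. Phototransduction genes had 8 higher in fluctuating and 20 in constant flies (medians 0.13 and 0.51), and synaptic genes 1 and 14 (medians 0.03 and 0.55). Without the array with egg shell transcripts, the constant counts were 20 and 14. A count that passes in 1 regime and not in the other is no test of a difference. No member of any of the lists passed the test of the difference between regimes. The genes that passed it lie outside the lists, which were written from general knowledge and may miss members of these families.

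**Figure D5:**
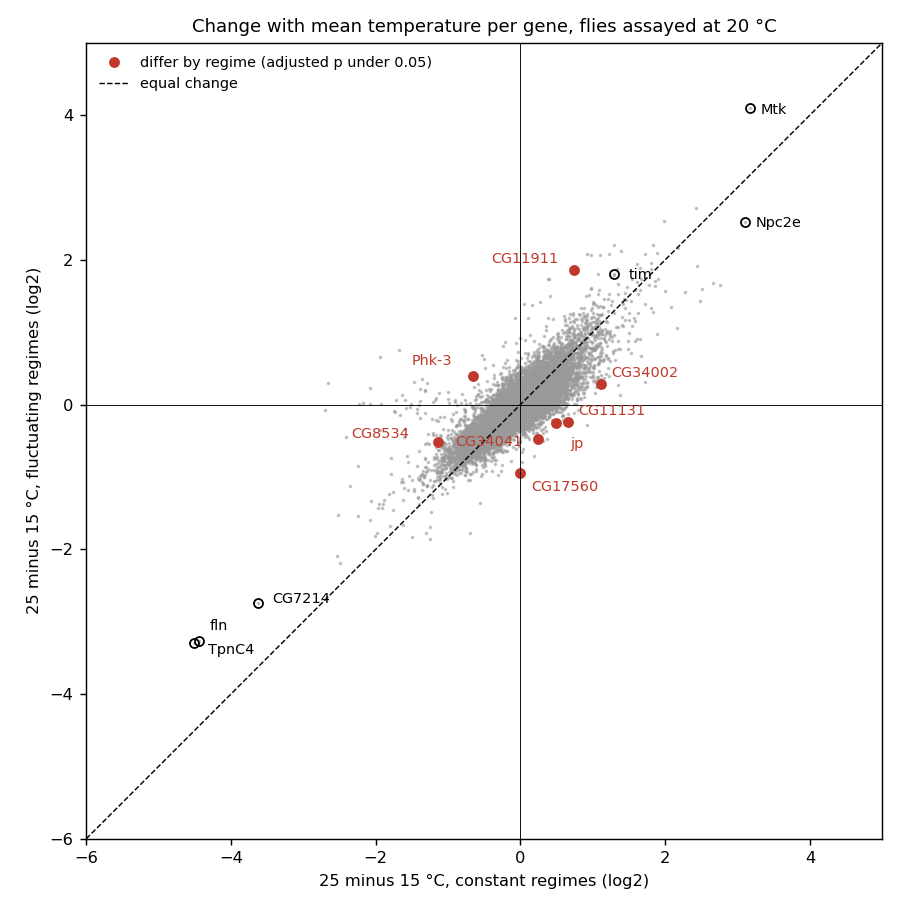
Change with mean temperature (25 minus 15 °C, log2) of each gene in fluctuating regimes (vertical) against constant regimes (horizontal), all assayed at 20 °C, with equal change on the dashed line. Red points are the labelled genes whose change differed by regime, open circles name genes for orientation, and TpnC4, fln and CG7214 lie above the line at the lower left.

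That test of the difference, the change in fluctuating flies minus the change in constant flies, passed for 14 of 18769 probe sets (0.0746%), 4 (0.0213%) above and 10 (0.0533%) below 0, or 9 genes (0.0751%). At an unadjusted p under 0.05 there were 2605. With arrays centred on their medians the split was 2 above and 29 below, and after quantile normalization 5 above and 31 below. Without the array with egg shell transcripts 2 passed, both below 0. CG17560 was lower in 25 °C flies under fluctuation (-0.95) and had a change of 0.00 in constant flies, a difference of -0.94 ± 0.16 (adjusted p = 0.0324). CG11911 rose in both, by 1.86 under fluctuation and 0.75 under constant regimes, a difference of 1.11 ± 0.18 (adjusted p = 0.0215). Phk-3, a gene of the insect chemosensory protein family, changed by 0.40 in fluctuating and by -0.66 in constant flies (difference 1.06 ± 0.18, adjusted p = 0.0349). Neither CG11911 (adjusted p = 0.0731) nor Phk-3 passed this test without the array with egg shell transcripts.

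After warming to 35 °C, the same regimes gave a largely similar contrast on separate arrays, 3 for 25 °C flies and 2 for 15 °C flies. There, 6214 probe sets (33.1%) differed, and so did 41.5% of genes, 17.4% higher and 24.1% lower. Of the calls at 20 °C, 71.9% were called at 35 °C, and of the calls at 35 °C 76.7% at 20 °C, with 12 in opposite directions. All 30 of the largest changes at 20 °C with groups that do not overlap were called at 35 °C. The change at 20 °C minus that at 35 °C passed the test for 13 probe sets (0.0693%), 11 (0.0586%) above and 2 (0.0107%) below 0, or 8 genes (0.0668%). It was 10 above and 5 below after quantile normalization, with 1366 at an unadjusted p under 0.05. Among list members this was the case for Cyp12d1-d and per. The clock gene per had a change of 1.08 at 20 °C and 0.35 at 35 °C (difference 0.73 ± 0.13, adjusted p = 0.0212). LManIII, a lysosomal mannosidase gene, had 1.81 and 0.37 (difference 1.44 ± 0.23, adjusted p = 0.0141). Gart, which encodes an enzyme of purine synthesis, had 1.26 and -0.07 (difference 1.33 ± 0.23, adjusted p = 0.0212). These counts rest on 15 °C flies at 35 °C with 2 arrays, and 528 probe sets passed without replicate 1 of that group and 1 without replicate 2.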

How the data were processed

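RNA of whole males was measured on Affymetrix Drosophila Genome 2.0 arrays, 1 pool of flies per array. The log2 expression values deposited by the authors had been made with GC-RMA (package gcrma in R), which corrects the background of probes by their base composition, normalizes by quantiles and summarises probes to probe sets. Scanner files were not used here, so weak probe sets keep the floor that GC-RMA gives them. Arrays have no depth, and their number limits the precision. Of 18952 probe sets, 183 controls were left out. Of the 18769 others, 13647 carry 1 gene symbol in the platform annotation, 402 several and 4720 none, and 13544 matched a reference gene. Each of 11982 genes was represented by its probe set with the highest mean.

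Means of 8 groups were fitted on 23 of 24 arrays with limma 3.58.1 in R 4.3.3 (lmFit, eBayes, no covariates), which gave 15 residual degrees of freedom, and p-values were adjusted by Benjamini-Hochberg over all 18769 probe sets. Differences between regimes and assay temperatures are contrasts of that fit. Scripts were tested on simulated data. Lists (61) and members were written from general knowledge with earlier results of these data known, and members matched through a wrong synonym were removed after the results had been seen. Genes were named by rule, as the 15 largest rises and falls with groups that do not overlap, up to 3 members of each list in each direction, all members of 5 lists, the extremes of the tests of differences and all tissue markers. Alternatives were the set of arrays, scaling, a level filter, another variance model, array weights, a replicate block and leaving out each array. Figures were drawn with Python 3.11.15, pandas 2.3.3 and matplotlib 3.10.9.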

Additional observations from a re-analysis of the deposited data

Results flagged for a closer look

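The change between 25 and 15 °C flies differed between fluctuating and constant regimes for 8 named genes, by the limma contrast of the changes with Benjamini-Hochberg adjustment over all probe sets. All changes are 25 minus 15 °C on the log2 scale, at 20 °C, and the difference is fluctuating minus constant. CG17560 had a change of -0.95 under fluctuation and 0.00 under constant regimes (difference -0.94 ± 0.16, adjusted p = 0.0324). CG11131 had a change of -0.24 under fluctuation and 0.65 under constant regimes (difference -0.89 ± 0.17, adjusted p = 0.0454). CG34002 had a change of 0.29 under fluctuation and 1.11 under constant regimes (difference -0.82 ± 0.15, adjusted p = 0.0454). The gene jp had a change of -0.26 under fluctuation and 0.49 under constant regimes (difference -0.75 ± 0.13, adjusted p = 0.0349). CG34041 had a change of -0.47 under fluctuation and 0.25 under constant regimes (difference -0.72 ± 0.12, adjusted p = 0.0324). CG11911 had a change of 1.86 under fluctuation and 0.75 under constant regimes (difference 1.11 ± 0.18, adjusted p = 0.0215). Phk-3 had a change of 0.40 under fluctuation and -0.66 under constant regimes (difference 1.06 ± 0.18, adjusted p = 0.0349). CG8534 had a change of -0.51 under fluctuation and -1.14 under constant regimes (difference 0.63 ± 0.12, adjusted p = 0.0454). The values of CG11131, jp, CG34041 and Phk-3 have opposite signs in the regimes, but the change of CG11131 in fluctuating flies did not pass the test (adjusted p = 0.132). In fluctuating flies the call of jp (adjusted p = 0.0351) was lost without 15 °C replicate 1 (0.127), 15 °C replicate 3 (0.0597) or 25 °C replicate 1 (0.294, with a change of -0.12). That of Phk-3 (0.0219) was lost without 15 °C replicate 1 (0.114), 15 °C replicate 3 (0.069), 25 °C replicate 1 (0.0776) or 25 °C replicate 2 (0.0882). Likewise, the change of CG34002 was past the threshold (adjusted p = 0.0463) but not without any 1 of the 15 °C arrays, 25 °C replicate 1 or 25 °C replicate 2 (up to 0.175, without 25 °C replicate 2). Over 21 alternatives, the difference stayed past the threshold in 15 for CG11911 and in 5 to 10 for the others. The array with egg shell transcripts is in 15 °C constant flies, which enter each of these differences. Without that array no difference above 0 passed, and that of CG11911 had an adjusted p of 0.0731.

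The change also differed between assay temperatures, 20 °C minus 35 °C, within fluctuating flies for 8 named genes. CG32243 had a change of 0.04 at 20 °C and 0.66 at 35 °C (difference -0.61 ± 0.11, adjusted p = 0.0386). CG12795 had a change of -0.11 at 20 °C and 0.50 at 35 °C (difference -0.61 ± 0.11, adjusted p = 0.0212). LManIII had a change of 1.81 at 20 °C and 0.37 at 35 °C (difference 1.44 ± 0.23, adjusted p = 0.0141). Gart had a change of 1.26 at 20 °C and -0.07 at 35 °C (difference 1.33 ± 0.23, adjusted p = 0.0212). CG8745 had a change of 0.39 at 20 °C and -0.85 at 35 °C (difference 1.24 ± 0.18, adjusted p = 0.00606). Cyp12d1-d had a change of 1.16 at 20 °C and 0.16 at 35 °C (difference 1.0 ± 0.16, adjusted p = 0.00992). The gene salm had a change of -0.16 at 20 °C and -1.09 at 35 °C (difference 0.93 ± 0.16, adjusted p = 0.0212). The clock gene per had a change of 1.08 at 20 °C and 0.35 at 35 °C (difference 0.73 ± 0.13, adjusted p = 0.0212). Over 19 alternatives, the difference stayed past the threshold in 17 for LManIII, 17 for CG8745, 16 for Cyp12d1-d, 11 for Gart and 6 to 9 for the others.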

How the results depend on the processing

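Of 332 named genes with a called change, 284 kept the call when any 1 of the 6 arrays was left out, and 283 kept it under every alternative but the fit on 24 arrays. Leaving out 1 array at a time, 5405 to 6303 probe sets were called between 25 and 15 °C flies, against 6628 with all. With the array that does not resemble any other put back, 369 were called, all among the 6628, and 276 of the 332 named genes lost the call. Its own group is not in the comparison. Counting only called probe sets that changed by at least 1 gave 344. The number called was 6421 to 6970 under the other sets of arrays, scalings, the level filter and the other variance model, and 8567 with array weights, a fit that gave a convergence warning. The fall of fzy became 0.0388 as the median over its probe sets, 2 of which have low levels.

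The number of probe sets that differed by regime, 14, moved to 0 on 24 arrays, 2 on 22 arrays, 4 on the 12 arrays assayed at 20 °C, 30 with a mean level of at least 4, 31 with centred arrays, 36 with quantile normalization, 22 with the trended and robust variance model and 418 with array weights, and lay between 2 and 14 when 1 array was left out. The number that differed by assay temperature, 13, moved to 0 on 24 arrays, 8 with centred arrays and 43 with array weights. It lay between 1 and 528 when 1 array was left out, the extremes being without 15 °C fluctuating, 35 °C replicates 2 and 1, where the lone array left was assumed to vary like the other groups. On 24 arrays the difference of Cyp12d1-d by assay temperature was -0.0935, against 1.0 on 23, the left-out array being part of that difference. The cause was not tested for the other moves.

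The labels do not say whether replicate numbers pair the arrays, and the following values cannot decide it. Deviations of same-numbered arrays from their group means correlated at 0.103, 0.0228 and -0.00814. Those of differently numbered arrays correlated between -0.0808 and 0.0851. With the replicate number as a block, 6462 probe sets were called between the groups, 11 by regime and 11 by assay temperature, and 2 named genes lost the call, Def and betaTub85D (adjusted p = 0.0585 and 0.0585). Weak probe sets limit the comparison, since 4675 probe sets had a mean below 4, where GC-RMA values crowd near the floor.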

Other observations

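Lists of the body surface and of the senses gave the following counts for 25 against 15 °C flies, beside 22.7% of all genes higher and 23.3% lower. Of 105 cuticle protein genes, 5 were higher and 17 lower (median -0.07), with Cpr72Ec (1.38) and Cpr100A (-1.07) at the ends. Without 25 °C replicate 2, 11 were lower, and without 25 °C replicate 3, 3 were higher. Chitin-binding and peritrophic matrix genes had 13 of 40 higher and 5 lower. The chitinase gene Cht9 was at 8.72, 8.55 and 8.60 in 25 °C flies, against 6.47, 7.18 and 7.14 in 15 °C flies (1.70 ± 0.17, adjusted p = 4.87e-07), and obst-A, a chitin-binding protein gene, at 5.01, 5.61 and 5.65 in 25 °C flies, against 6.59, 7.12 and 7.01 in 15 °C flies (-1.48 ± 0.22, adjusted p = 3.03e-05). Of 166 chemoreceptor genes, 127 had group means below 4 in both groups, 0 were higher and 12 lower, among them the olfactory receptor gene Or85c (-1.37). Odorant-binding proteins had 5 of 48 higher, led by Obp18a (0.93), and 7 lower, led by Obp93a (-0.79).

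Autophagy genes had 10 of 21 higher and 1 lower (median 0.30), with Atg4a (0.70), a protease that primes Atg8, in front. Genes of amino acid synthesis and the integrated stress response had 8 of 14 higher and 1 lower, led by Shmt (1.25), which feeds one-carbon metabolism from serine, and P5CS (0.75) of proline synthesis. Values of Shmt were 12.13, 11.89 and 12.13 in 25 °C flies, against 10.73, 10.86 and 10.80 in 15 °C flies. Antioxidant enzymes had 9 of 16 higher and 3 lower, and Turandot and stress-responsive genes 5 of 11 and 0. Genes related to ecdysteroid kinases had 16 of 39 higher and 3 lower (median 0.29). The number lower was 1 without 15 °C replicate 2 and 1 without 15 °C replicate 3. Insulin and TOR signalling had 4 of 11 higher and 0 lower, and ecdysone and juvenile hormone genes 3 of 22 and 0. Vacuolar ATPase had 9 of 31 higher, 5 without 25 °C replicate 3, and 11 lower. Serpins, inhibitors of serine proteases, were split with 9 of 28 higher, such as nec (0.84), and 11 lower, such as Spn28F (-1.69) and Spn28Da (-0.96).

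Tissue lists outside muscle and gonad had these counts. Malpighian tubule markers had 6 of 12 higher and 0 lower, fat body markers 5 of 11 and 0, and haemocyte markers 2 of 14 and 0, with summed levels of the 3 defining haemocyte markers of 8.89 to 9.15 in 25 °C flies and 8.82 to 9.14 in 15 °C flies. By chromosome, the share of genes higher lay between 21.3% on 3L and 25.3% on X. The share lower lay between 7.69% of the 65 genes on chromosome 4 and 26.3% on 2L. The median change was 0.07 on X and 0.08 on chromosome 4, and between 0.00 and 0.03 on the other arms.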
